A study of Cavia porcellus with 238 samples.

Results

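Thyroid RNA of the guinea pig (GP, Cavia porcellus) was compared with RNA of the 10 other tissues taken from the same animals. The thyroid libraries were chosen by their label alone and number 22 of the 238 libraries of the series. A library labelled as the thyroid of non-breeder male 19 was left out, as the study excludes it, so that 237 libraries were used. The animals were 24 GPs of the strain HsdDhl:DH (Dunkin Hartley), with no transgene or drug. Breeders had been housed with a partner of the opposite sex and non-breeders with an animal of the same sex, and breeder females had raised their litters and stopped lactating before sampling. The thyroid libraries fall into 4 groups, which are 5 of breeder females (BF), 6 of breeder males (BM), 6 of non-breeder females (NF) and 5 of non-breeder males (NM). Animals were 0.95 to 0.97 years old except males of 0.74 years, which gave 3 of the thyroid libraries (BM 20, BM 22 and NM 18). The other tissues are heart, skin, liver, kidney, cerebellum, hypothalamus and adrenal gland with 24 libraries each, pituitary with 23, and ovary and testis with 12 each. Each library of a tissue came from a separate animal.

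The thyroid makes its hormones on thyroglobulin, a large protein that follicular cells secrete into the lumen of the follicle. Iodide is taken up from blood, oxidised at the apical membrane with hydrogen peroxide from dual oxidases and attached to tyrosines of thyroglobulin. The iodinated protein is later taken back up and cleaved to release the hormones. Between the follicles lie C cells, which make calcitonin. The parathyroid glands, the source of parathyroid hormone, lie on or beside the thyroid and can be taken with it at dissection.

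Counts per thyroid library ranged from 11902191 to 19620753, and those of the other libraries from 3551108 to 22277626. Levels are given as CPM, the count of a gene scaled to a common library total, with the mean of the libraries of a tissue taken first. They do not correct for transcript length, so that levels of different genes are not compared. Reads came from polyA RNA with a kit that does not mark strand, so that overlapping genes cannot be separated, and genes with near-identical copies (CALCA and CALCB, the MYH genes) are uncertain. In bulk tissue, fewer cells of a type and less RNA per cell cannot be told apart. Log2 fold changes, with their standard errors (SE), came from 1 edgeR fit of all 237 libraries with TMM scaling. Against a single tissue a gene was called at a false discovery rate (FDR) below 0.01 and a fold change beyond 2 on the log2 scale.

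The defining genes of the thyroid were present in each of the 22 libraries. TG, the gene of thyroglobulin, had a lowest value of 34805 CPM, a median of 65304 CPM and a highest of 120639 CPM in thyroid, and made up 3.48% to 12.1% of all counts of a library. Mean TG in the other tissues lay between 0.0531 CPM in liver and 12.8 CPM in kidney. NKX2-1, a transcription factor needed to form and maintain follicular cells, had a lowest value of 195 CPM, a median of 252 CPM and a highest of 412 CPM in thyroid. Its next highest means were 22.04 CPM in hypothalamus and 5.07 CPM in pituitary, and it was at 0 CPM in liver and adrenal gland. No library of another tissue reached the lowest thyroid library for either gene. The fitted difference of NKX2-1 from hypothalamus was 3.76 on the log2 scale (SE 0.20). The kidney mean of TG rests on the kidneys of BF 01 and BF 02, at 151 CPM each, while the 22 other kidney libraries had at most 0.845 CPM. Outside thyroid and kidney the highest TG value of a library was 33.0 CPM. In the library left out, NKX2-1 stood at 0.0723 CPM and PTH at 0 CPM.

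Of 15660 genes tested, 53 (0.338%) were called higher in thyroid than in each of the 10 other tissues, and 5 (0.0319%) were called lower than in each. The 53 genes together held between 5.24% and 13.9% of the counts of a thyroid library, with a median of 10.5%, against at most 0.116% in any other library. For 38 of them every thyroid library lay above every library of the other tissues. Among all genes tested, 99 (0.632%) were separated in this way. Mean thyroid CPM of the 53 genes was 3.53 to 5259 times that of the next tissue, with a median ratio of 9.94, and 26 genes had a ratio above 10. The highest ratio is that of TG, and with medians over libraries in place of means it was 64022. The next tissue was the pituitary for 10 genes, hypothalamus for 9, kidney for 9, skin for 8, testis for 6, ovary for 5, cerebellum for 4 and heart for 2, and never liver or adrenal gland. With median-of-ratios factors, and with DESeq2, 49 of the 53 were still called, and GFRA4, SLC25A35, SLC4A5 and SRCRB4D were lost under both. Just inside the fold threshold lay SLC4A5, a sodium bicarbonate cotransporter, whose smallest log2 fold change was 2.01 (SE 0.21, against pituitary). Just outside were SERTM1 at 1.97, TMEM255B and CLN3 at 1.96, and SCNN1B at 1.91.

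**Figure D1:**
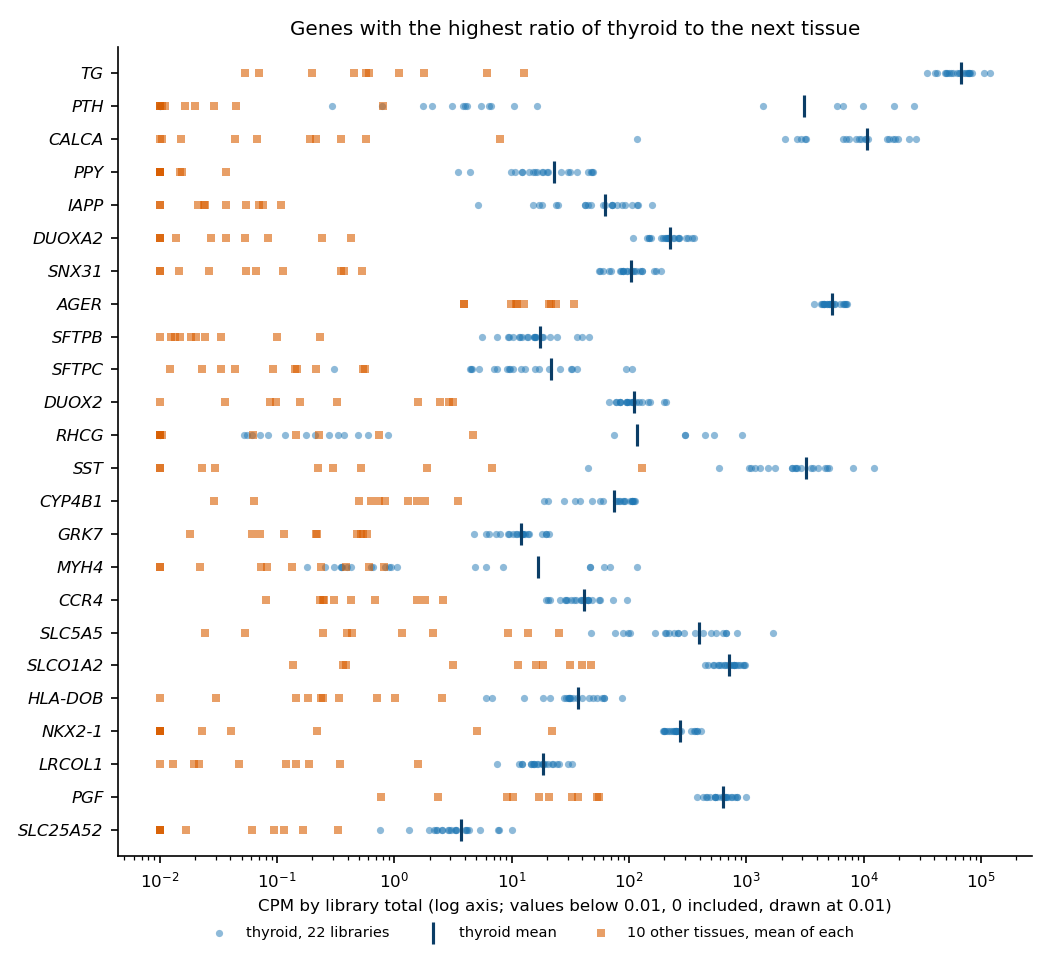
CPM of 24 of the 25 genes with the highest ratio of thyroid to the next tissue, on a log axis where values below 0.01 are drawn at 0.01. Blue points are the 22 thyroid libraries, the dark bar is their mean and orange squares are the means of the 10 other tissues, so that TG runs from 34805 to 120639 CPM against at most 12.8 CPM elsewhere. PTH and RHCG fall into a high and a low set of thyroid libraries, while MYH4 leaves only a narrow gap, from 6.02 to 8.45 CPM.

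Genes of thyroid hormone synthesis made up the first group among the 53. Of the 14 genes of this list that were tested, 7 were higher in thyroid than in each other tissue and 12 were higher than in at least 8 tissues, against 0.338% and 2.14% of all genes. DUOX2, a dual oxidase, averaged 111 ± 35.9 CPM in thyroid (SD, n = 22), against 3.19 ± 10.6 CPM in ovary (SD, n = 12). The lowest thyroid library had 67.1 CPM of DUOX2 and the highest ovary library 36.9 CPM. DUOXA2, the factor that brings DUOX2 to the cell surface, had 109 to 357 CPM in thyroid, and no other library exceeded 1.03 CPM. The DUOX1 partner DUOXA1 had 8.69 to 17.95 CPM in thyroid against a skin mean of 2.23 CPM.

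The iodide carriers differed in their pattern over the tissues. SLC5A5, the sodium-iodide symporter of the basal membrane, averaged 391 ± 369 CPM in thyroid (SD, n = 22) and ran from 47.1 to 1699 CPM. Its next tissues were hypothalamus at 25.4 CPM and cerebellum at 13.8 CPM, and the lowest thyroid library still lay above the highest other library at 44.5 CPM. SLC26A7, an anion transporter required for thyroid hormone production in humans and mice, had 211 to 603 CPM in thyroid against 41.7 ± 15.03 CPM in kidney (SD, n = 24). SLC26A4, which encodes pendrin, the apical iodide exchanger known from human and mouse thyroid, showed the opposite picture. Its thyroid mean was 0.283 CPM with a highest library of 1.24 CPM, against 228 ± 279 CPM in kidney (SD, n = 24), 146 CPM in liver and 20.7 CPM in heart. The fitted difference of SLC26A4 was -9.64 (SE 0.39) against kidney and -9.84 (SE 0.39) against liver on the log2 scale, and it was called lower in thyroid in 6 of the 10 comparisons. SLC5A8, a monocarboxylate carrier of the apical membrane, was the second exception, with 47.2 CPM in thyroid and 204 CPM in kidney. It was called lower than in kidney at -2.20 (SE 0.18) and higher than in the 9 other tissues.

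IYD, the deiodinase that recovers iodide from unused tyrosines, averaged 37.6 ± 14.2 CPM in thyroid (SD, n = 22) and 9.45 ± 2.73 CPM in liver (SD, n = 24). Every thyroid library lay above every liver library for IYD. Its fitted difference from liver was nevertheless 1.09 (SE 0.17) after TMM scaling, below the fold threshold, and it was called higher in the 9 other comparisons. KCNQ1, a potassium channel subunit, was highest in thyroid by mean CPM, at 117 CPM against 102 CPM in heart, but not after TMM scaling, where it stood at -0.19 (SE 0.11) against heart. Its partner subunit KCNE2 had 0.314 CPM in thyroid and was not tested.

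Regulators of the follicular cell were shared with other tissues to a larger or smaller degree. PAX8, a transcription factor shared by thyroid and kidney, had 367 to 1377 CPM in thyroid and 332 ± 164 CPM in kidney (SD, n = 24), a difference of 0.82 (SE 0.13) on the log2 scale that is short of the fold threshold. PAX8 was called higher than in the 9 remaining tissues, of which liver had the most at 39.5 CPM. HHEX, a homeobox factor of the early thyroid and liver, averaged 191 ± 46.3 CPM in thyroid (SD, n = 22) and 76.6 ± 28.2 CPM in liver (SD, n = 24), with a fitted difference of 0.41 (SE 0.13). TSHR, the receptor of thyroid-stimulating hormone, had 130 to 380 CPM in thyroid and 70.1 ± 43.0 CPM in skin (SD, n = 24). Thyroid exceeded skin for TSHR by 1.46 (SE 0.23), and 12 of 22 thyroid libraries lay above the highest skin library. Of the 15 genes of the TSH receptor signalling list, TSHR and RAP1GAP had their highest mean in thyroid, while the G protein GNAS averaged 1897 CPM in thyroid and 4546 CPM in pituitary. FOXE1 was not analysed here.

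Of 13 genes of hormone release and deiodination, 0 were called higher and 3 lower than in kidney, against 7.23% and 8.32% of all genes, and 8 were called higher and 3 lower than in testis, against 21.2% and 24.6%. LRP2, the endocytic receptor megalin, averaged 976 ± 224 CPM in thyroid (SD, n = 22) and 1123 ± 498 CPM in kidney (SD, n = 24), and the test found no difference between them at -0.31 (SE 0.25, edgeR FDR 0.265). In the 8 tissues other than kidney and testis, mean LRP2 was at most 6.63 CPM. DIO1, a deiodinase that converts thyroxine to the active hormone, had 526.1 to 2023 CPM in thyroid, against means of 294 CPM in kidney and 203 CPM in liver. Every thyroid library exceeded every other library for DIO1, although its fitted difference was 1.46 (SE 0.15) from liver and 1.75 (SE 0.15) from kidney. DIO2, the other activating deiodinase, had 2.81 CPM in thyroid against 266 CPM in pituitary, with a difference of -6.40 (SE 0.26). SLC16A10, an exporter of aromatic amino acids and thyroid hormone, had its lowest mean of all tissues in thyroid, at 1.04 CPM, and was called lower in 8 comparisons. No count of SLC17A4 or SERPINA7, a thyroid hormone transporter and the hormone binding globulin of blood, was found in any thyroid library.

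**Figure D2:**
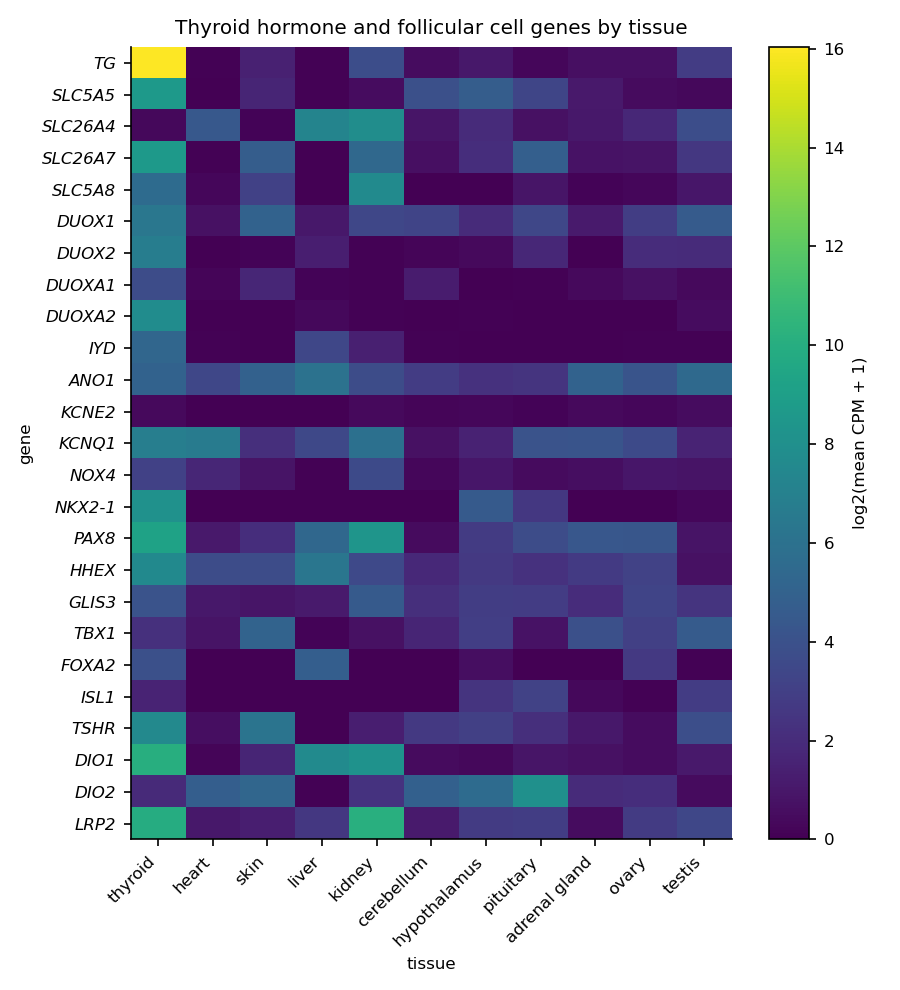
Mean level of genes of hormone synthesis, follicular transcription, hormone release and deiodination (down the page) in the 11 tissues (across, thyroid first), with colour as log2 of mean CPM plus 1. The thyroid column is bright for TG, DIO1 and LRP2, the kidney column shares PAX8, LRP2, DIO1 and SLC5A8, and SLC26A4 is dark in thyroid and bright in kidney and liver.

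Genes best known from endocrine cells other than follicular cells formed a second group. CALCA, which encodes calcitonin and calcitonin gene-related peptide, had 118 to 27993 CPM in thyroid with a median of 9364 CPM, against 7.95 ± 12.1 CPM in kidney (SD, n = 24). SST, somatostatin, which C cells of several mammals also make, had 44.7 to 12367 CPM in thyroid with a median of 2608 CPM and averaged 129 ± 90.02 CPM in hypothalamus (SD, n = 24). Thyroid exceeded hypothalamus for SST by 4.79 (SE 0.31) on the log2 scale, and 21 of 22 thyroid libraries lay above the highest hypothalamus library at 326 CPM. IAPP, islet amyloid polypeptide, ran from 5.18 to 156 CPM in thyroid and reached at most 0.338 CPM in any other library. PPY, pancreatic polypeptide, ran from 3.50 to 49.3 CPM in thyroid and reached at most 0.213 CPM elsewhere. Both peptides are known from pancreatic islets, a tissue the series does not hold. GFRA4, a receptor subunit for the growth factor persephin found in mouse C cells, averaged 144 ± 93.0 CPM in thyroid (SD, n = 22) and 22.7 ± 3.52 CPM in testis (SD, n = 12). GFRA4 was no longer called higher than in each tissue by DESeq2 or with median-of-ratios factors. Of the 18 genes of the C cell list, 14 were called higher in thyroid than in skin, which compares with 7.75% of all genes, but 3 were called higher and 7 lower than in pituitary, where all genes gave 7.18% and 12.2%.

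The library of BM 20 stood apart for the C cell list. Its CALCA value of 118 CPM lay below the next lowest of 2120 CPM, and 14 of the 18 listed genes had their lowest thyroid value in it. The neuroendocrine transcription factor INSM1 was at 0.0617 CPM in BM 20, against at least 2.45 CPM in the 21 other libraries. FOXA2, a foregut transcription factor, was at 0.123 CPM in BM 20 and at least 1.98 CPM elsewhere. IAPP was also lowest in BM 20, at 5.18 CPM, but PPY was not, at 20.4 CPM there and 3.50 CPM in the lowest library. The same library had the highest TG of all. Among the 53 thyroid-high genes, 10 were lowest in BM 20, and these include CALCA and SST of the C cell list. The share of all genes that were lowest in this library was not counted. Without this library 52 genes were called higher in each comparison, 51 of them shared with the 53.

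Several genes ranked the libraries much as CALCA did. The 6 libraries with most CALCA were BF 05, NF 08, BM 16, NF 13, NM 30 and NM 18. These were also the 6 highest for GFRA4, for the granule proteins SCG2 and SCG3 and for the homeobox gene HOXB6. The granule protein genes CHGB and SCG5, the prohormone convertase PCSK1, SYT4, FOXA2 and HOXB7 shared 5 of the 6 libraries, and SST, IAPP, RET, CHGA, INSM1 and SFTPC shared 4, as did HLA-DOB and the chemokine CCL17. CALCB, PPY and PCSK2 shared 3, AGER 1 and SFTPB 0. The genes compared in this way were chosen after their values were seen. Since all values come from the same libraries and every gene shares their depth, these counts are a description.

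PTH, parathyroid hormone, split the thyroid libraries. It had 26745 CPM in NF 03, 18235 CPM in BF 05, 9794 CPM in BM 21, 6647 CPM in NM 18, 5904 CPM in BM 24 and 1397 CPM in NF 13. The 16 other thyroid libraries had at most 16.3 CPM, and 3 of them had none. These 6 libraries come from all 4 groups. Testis was the next tissue at 0.801 CPM. The same 6 libraries were the 6 highest for GCM2, the transcription factor that specifies the parathyroid, with 35.8 to 417 CPM against at most 0.276 CPM in the 16 others. They were also the 6 highest for CASR, the calcium-sensing receptor, with 83.8 to 386 CPM against at most 59.2 CPM, and for GATA3, a transcription factor of the parathyroid. Also on the parathyroid list, VDR shared 5 of the 6 libraries, CHGA 4 and PTHLH 2. Some genes that are not on the parathyroid list were also highest in these 6 libraries, with a gap to the others that was narrow for MYH4. RHCG, an ammonia transporter, had 73.8 to 926 CPM in these 6 libraries and at most 0.883 CPM in the others. MYH4, a fast skeletal muscle myosin, had 8.45 to 116 CPM against at most 6.02 CPM, and PVALB, the calcium buffer parvalbumin, had 5.24 to 80.4 CPM against at most 1.01 CPM. ACTA1, skeletal muscle actin, shared 3 of the 6 libraries, and TNNT3 of the skeletal muscle list shared 2.

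Without the 6 libraries with most PTH, 50 genes were called higher in thyroid than in each other tissue, and 49 of these were among the 53. PTH, RHCG, MYH4 and DRD4 were lost and CLN3 was gained. The smallest log2 fold change over the 10 tissues was then 1.83 for PTH and -4.75 for RHCG. RHCG was also lost when the animal was taken as a block, with a smallest log2 fold change of 0.45 (4.81 for PTH, which was still called), while the fit without the block gave 4.13 (SE 0.62) against testis, and every thyroid library outside the 6 was below the testis mean of 4.63 CPM.

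**Figure D3:**
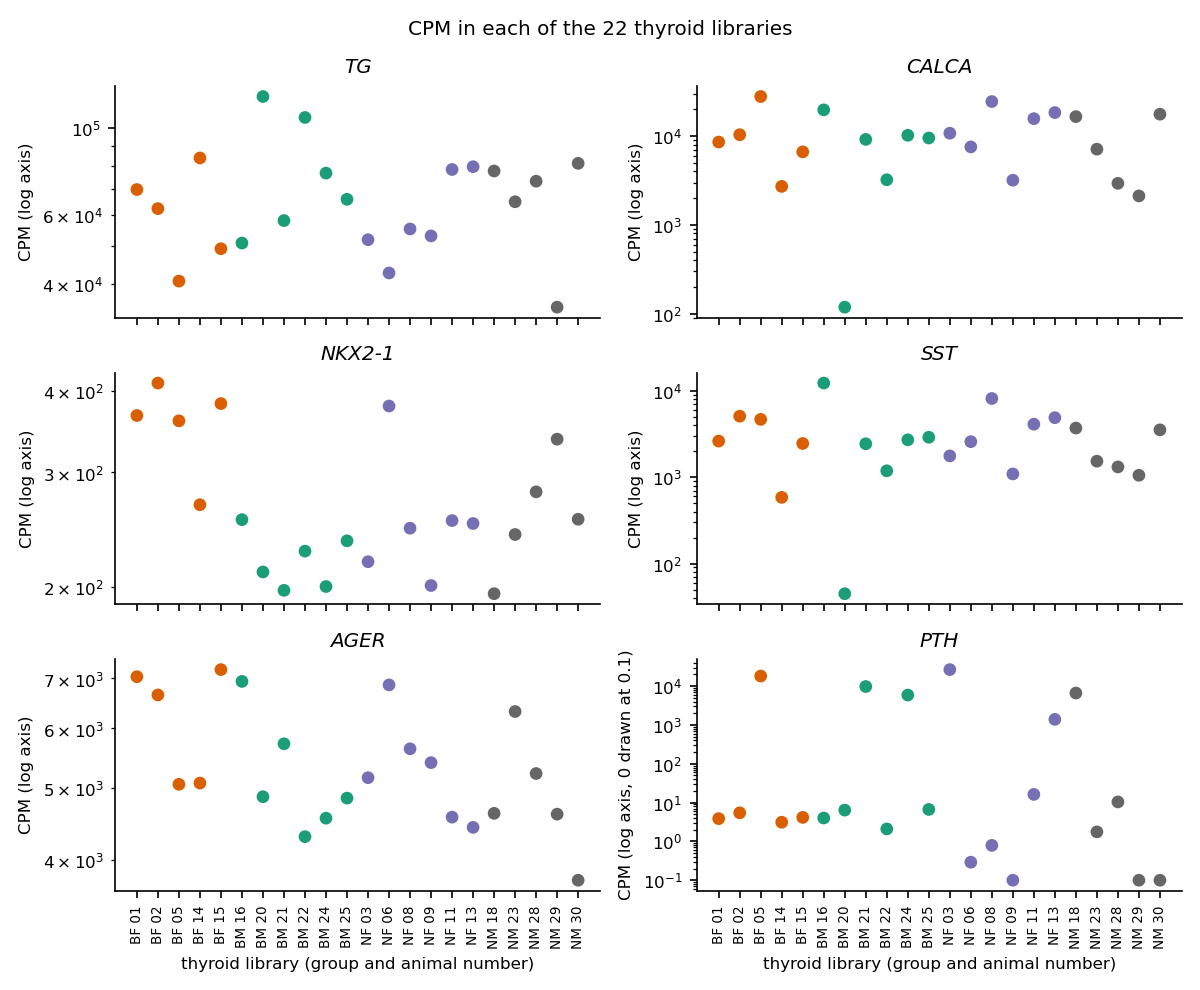
CPM of 6 genes in each of the 22 thyroid libraries, on log axes that differ between genes, coloured by group (BF, BM, NF, NM) and labelled by animal. TG, NKX2-1 and AGER vary within a narrow band, CALCA and SST drop in BM 20, and PTH is at least 1397 CPM in 6 libraries and at most 16.3 CPM in the others.

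Another group holds genes best known from other organs. AGER, the receptor for advanced glycation end products, which in mammals is most abundant in alveolar type 1 cells of the lung, had 3757 to 7195 CPM in thyroid with a median of 5113 CPM. Its means elsewhere lay between 3.93 CPM in liver and 33.9 ± 7.64 CPM in skin (SD, n = 24), and thyroid exceeded skin by 7.35 (SE 0.12) on the log2 scale. AGER was also among the steadier genes, with a coefficient of variation (CV) of 18.7% over the 22 libraries. SFTPB and SFTPC, surfactant proteins of the lung, had 5.53 to 45.2 CPM and 0.308 to 105 CPM in thyroid. The highest other library had 4.84 CPM of SFTPB, in pituitary, and 1.13 CPM of SFTPC, in hypothalamus. Of the 11 genes of the airway and lung list with at least 1 CPM in some tissue, these are the only 2 with their highest mean in thyroid. Of the 11 tested genes of the list, 5 were called higher than in at least 8 tissues, against 2.14% of all genes. Against heart 8 of the 11 were higher and 1 lower, where all genes gave 11.6% and 8.96%. Against pituitary 4 were higher and 3 lower, where all genes gave 7.18% and 12.2%. The lung surfactant genes SFTPA1 and SFTPD averaged 0.271 and 0.113 CPM in thyroid, the club cell gene SCGB1A1 had 0.00300 CPM and the basal cell keratin KRT5 had 0.568 CPM. NAPSA, an aspartic protease of lung and kidney, averaged 16.1 CPM in thyroid and 160 CPM in kidney.

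Carriers, receptors and enzymes completed the list. SLCO1A2, an organic anion transporter that also carries thyroid hormones, had 447 to 971 CPM in thyroid against 47.8 ± 9.30 CPM in hypothalamus (SD, n = 24). SLCO2A1, the prostaglandin transporter, averaged 411 ± 189 CPM in thyroid (SD, n = 22) and 73.8 ± 21.8 CPM in skin (SD, n = 24). CYBRD1, a membrane reductase of iron and ascorbate, averaged 1764 ± 321 CPM in thyroid (SD, n = 22) and 327 ± 137 CPM in skin (SD, n = 24). Among receptors, the ATP-gated channel P2RX2 averaged 674 ± 176 CPM in thyroid (SD, n = 22) and 164 ± 37.6 CPM in pituitary (SD, n = 23), and was at most 44.9 CPM by mean in the 9 other tissues. GRM8, a metabotropic glutamate receptor, had 81.3 to 164 CPM in thyroid, and no other library exceeded 32.3 CPM. CARNS1, which makes carnosine, averaged 467 ± 175 CPM in thyroid (SD, n = 22), against 107 ± 9.03 CPM in cerebellum (SD, n = 24). PGF, a growth factor of the VEGF family, averaged 633 ± 153 CPM in thyroid (SD, n = 22) and 55.5 ± 30.8 CPM in ovary (SD, n = 12). SNX31, a sorting nexin, had 55.8 to 186 CPM in thyroid, and the serine protease gene PRSS22 had 215 to 494 CPM, each above every other library.

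Immune genes on the list were few. HLA-DOB, a class 2 antigen presentation gene, averaged 36.5 ± 19.6 CPM in thyroid (SD, n = 22) and 2.54 ± 1.98 CPM in pituitary (SD, n = 23), and the chemokine receptor CCR4 averaged 41.0 ± 18.1 CPM in thyroid (SD, n = 22) and 2.59 ± 1.08 CPM in hypothalamus (SD, n = 24). The summed level of the 11 B cell genes was 5.21 to 19.5 CPM over the thyroid libraries, and that of the 18 T cell and thymus genes was 19.8 to 52.2 CPM. MS4A1, a B cell surface gene, had 0.348 CPM by mean in thyroid, against 1.09 CPM in liver. Of the T cell genes, RAG1 had a higher mean in thyroid than in any other tissue, at 3.29 CPM, while RAG2 and DNTT had 0.0458 and 0.0204 CPM.

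The 5 genes called lower in thyroid than in each other tissue were CDHR1, ZNF385B, BMPR1B, CPS1 and GNAI1. CPS1, carbamoyl phosphate synthetase of the urea cycle, had 0.0170 CPM in thyroid, 0.0927 CPM in heart and 6175 CPM in liver. Its fitted difference from heart was -2.33 (SE 0.84, edgeR FDR 0.00758). BMPR1B, a receptor of bone morphogenetic proteins, had 0.0609 CPM in thyroid, 0.351 CPM in skin and 51.4 CPM in ovary. ZNF385B, a zinc finger gene, had 0.123 CPM in thyroid, 1.68 CPM in skin and 126 CPM in cerebellum. CDHR1, a photoreceptor cadherin, had 0.0168 CPM in thyroid, 0.248 CPM in ovary and 94.8 CPM in pituitary. GNAI1, an inhibitory G protein subunit, was the only one of the 5 above 1 CPM, with 0.278 to 3.88 CPM in thyroid, 2.97 CPM in liver and 34.6 CPM in cerebellum. The thyroid means of CPS1, BMPR1B, ZNF385B and CDHR1 lie below 3 counts per library (0.181 CPM), so that depth limits the size of their differences. CPS1 and GNAI1 were no longer called in every comparison without the males of 0.74 years, which left 3 genes, nor without the 6 libraries with most PTH. GNAI1 was also lost without the libraries of 50 nt, and CPS1 with 1 mean per tissue, sex and breeding group.

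Among the single tissues, kidney, ovary and skin had the fewest genes called against thyroid, and testis had the most. Against kidney 1133 genes (7.23%) were higher and 1303 (8.32%) lower in thyroid, against ovary 1255 (8.01%) and 1388 (8.86%), and against skin 1213 (7.75%) and 1537 (9.81%). Adrenal gland gave 1721 higher (11%) and 1078 lower (6.88%), pituitary 1125 (7.18%) and 1912 (12.2%), and heart 1817 (11.6%) and 1403 (8.96%). Hypothalamus gave 1389 higher (8.87%) and 2495 lower (15.9%), liver 2386 (15.2%) and 1526 (9.74%), cerebellum 2220 (14.2%) and 2336 (14.9%), and testis 3318 (21.2%) and 3857 (24.6%). The share of calls that were higher in thyroid was highest against adrenal gland at 61.5% and liver at 61.0%, and lowest against hypothalamus at 35.8% and pituitary at 37.0%. By mean CPM, 814 of 15536 genes with at least 1 CPM in some tissue (5.24%) were highest in thyroid and 297 (1.91%) lowest.

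**Figure D4:**
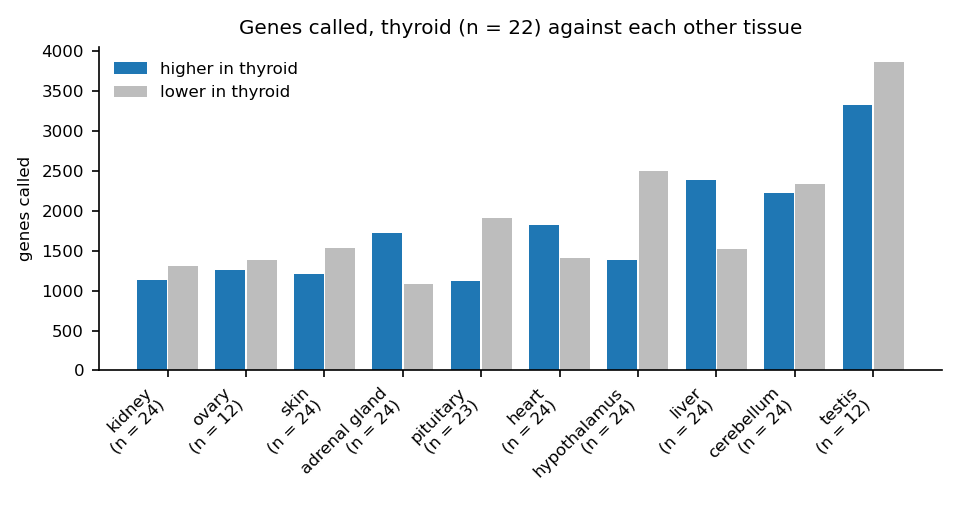
Number of genes called higher (blue) and lower (grey) in thyroid against each of the 10 other tissues, ordered by the number called, with the number of libraries of the tissue under its name. Kidney, with 1133 higher and 1303 lower, has the fewest calls and testis, with 3318 higher and 3857 lower, the most, and lower calls outnumber higher calls most against hypothalamus.

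The genes with the widest differences from kidney were, on the high side, PTH, RHCG, SST, TG and NKX2-1. No count of PTH was found in 24 kidney libraries, so that PTH was at least 12241-fold higher in thyroid, taking the floor of 3 counts over the mean kidney library total. This bound rests on the thyroid mean, and without NF 03 it was 7838-fold. The median thyroid library had 4.81 CPM of PTH, which is 18.8 times the floor of 0.255 CPM, and 3 thyroid libraries had none. On the low side they were carriers of the renal tubule and secreted or metabolic genes. SLC12A3, the salt cotransporter of the distal tubule, averaged 0.0851 CPM in thyroid and 1971 ± 1224 CPM in kidney (SD, n = 24). The amino acid carrier SLC7A13 averaged 0.0262 CPM in thyroid and 712 CPM in kidney. SLC6A19, another amino acid carrier, had no count in thyroid and was at least 780-fold lower than in kidney. ELSPBP1, a gene named for a sperm binding protein, averaged 0.318 CPM in thyroid and 5160 CPM in kidney, and the esterase gene CES2 averaged 0.0239 CPM in thyroid and 319 CPM in kidney.

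Against ovary the widest low differences were in steroid and gonadal genes. HSD3B2 and CYP19A1, enzymes of steroid synthesis, averaged 0.00728 and 0.01005 CPM in thyroid, against 412 ± 198 and 326 ± 725 CPM in ovary (SD, n = 12). The ovary values of CYP19A1 ran from 0.489 to 2367 CPM with a median of 2.43 CPM, and without the ovary of NF 03 their mean was 141 CPM. LHCGR, the receptor of luteinizing hormone, averaged 0.0117 CPM in thyroid and 401 CPM in ovary, and the transcription factors GATA4 and NR5A1 averaged 0.00797 and 0.0183 CPM in thyroid and 201 and 317 CPM in ovary. The high side included CALCA, SST, PTH and TG, and SST, with no count in 12 ovary libraries, was at least 16814-fold higher in thyroid. Against skin the high side included PTH, SST, CALCA and TG. The low side held genes of the cornified epidermis and hair, of which KRT25, CALML5 and HRNR had no count in any thyroid library. They were at least 12663-fold, 11911-fold and 10817-fold lower in thyroid than in skin. KRT1 and KRT85 had 2 counts each over all 22 thyroid libraries and averaged 7600 and 2147 CPM in skin.

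Lists of cell types and processes were read against these shares. Hormone synthesis genes had a median log2 fold change of 3.74 against kidney, where the median of all genes was 0.05. Of the 14, 9 were higher and 2 lower than in kidney, against 7.23% and 8.32% of all genes. Their median was 8.55 against adrenal gland, with 12 of 14 higher, where the median of all genes was 0.02 and 11% were higher. Of 19 epithelial junction and keratin genes, 1 was called higher and 3 lower than in kidney, against 7.23% and 8.32% of all genes. Their median log2 fold change was 0.11. Against heart 15 were higher and 0 lower, where all genes gave 11.6% and 8.96%, and the median was 7.16. EPCAM, an epithelial adhesion protein, averaged 597 CPM in thyroid and 450 CPM in kidney. CLDN3, a tight junction protein, averaged 199 ± 43.0 CPM in thyroid (SD, n = 22) and 44.8 ± 24.5 CPM in kidney (SD, n = 24), and every thyroid library lay above every other library. KRT8 averaged 315 CPM in thyroid and 191 CPM in kidney, but after TMM scaling was -0.16 (SE 0.12) against liver.

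Endothelial genes had high means in thyroid, and how many passed the fold threshold varied by tissue. By mean CPM, 9 of 21 were highest in thyroid, against 5.24% of all genes. KDR, the main receptor of VEGF, averaged 334 ± 95.03 CPM in thyroid (SD, n = 22) and 214 ± 57.2 CPM in heart (SD, n = 24). PLVAP, a protein of fenestrated capillaries, averaged 710 ± 117 CPM in thyroid (SD, n = 22) and 402 ± 73.3 CPM in kidney (SD, n = 24), with 0.74 (SE 0.11) on the log2 scale and 20 of 22 thyroid libraries above all others. Of the 21 genes, 1 was called higher than in kidney, 1 than in skin, 2 than in heart and 2 than in ovary. All genes gave 7.23%, 7.75%, 11.6% and 8.01% in these comparisons. The numbers were 5 for liver, 6 for adrenal gland, 10 for pituitary, 11 for hypothalamus, 17 for cerebellum and 20 for testis. There all genes gave 15.2%, 11%, 7.18%, 8.87%, 14.2% and 21.2%. None was called lower in any of the 10 comparisons, where 6.88% to 24.6% of all genes were. FLT1 and EGFL7 were highest by mean CPM but not after TMM scaling, at -0.26 (SE 0.10) and -0.00 (SE 0.14) against heart.

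Genes for protein folding in the endoplasmic reticulum had 8 of 34 members highest in thyroid by mean CPM, against 5.24% of all genes. CALR, the chaperone calreticulin, averaged 3617 ± 601 CPM in thyroid (SD, n = 22) and 1669 ± 395 CPM in ovary (SD, n = 12), and each thyroid library was above every other library. HSP90B1 averaged 2167 CPM in thyroid and 1428 CPM in ovary, and HSPA5 averaged 1555 CPM in thyroid and 1697 CPM in pituitary. DNAJC3 and PDIA4 were highest by mean CPM but below liver after TMM scaling, at -0.34 (SE 0.07) and -0.31 (SE 0.07). Of the 34, 3 were called higher than in heart and 13 than in cerebellum, against 11.6% and 14.2% of all genes. Of 20 peroxide defence genes, PRDX6 and SOD3 were highest in thyroid, again against 5.24% of all genes. SOD3, the extracellular superoxide dismutase, averaged 866 ± 183 CPM in thyroid (SD, n = 22) and 620 ± 222 CPM in adrenal gland (SD, n = 24).

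Genes of fat cells varied widely between the thyroid libraries. The summed level of 14 adipocyte genes ran from 644 to 9709 CPM, with a median of 2288 CPM. None was highest in thyroid, but 8 of 14 were called higher than in at least 8 tissues, against 2.14% of all genes. Against skin 2 were higher and 1 lower, where all genes gave 7.75% and 9.81%. ADIPOQ, adiponectin, had 5.25 to 497 CPM in thyroid and averaged 683 ± 390 CPM in skin (SD, n = 24). The 20 skeletal muscle genes summed to 55.3 to 350 CPM in thyroid and the muscle regulators MYOD1 and MYF6 had 0.107 and 0.0174 CPM. Of the 19 with at least 1 CPM in some tissue, MYH4, TNNI2 and ATP2A1 had their highest mean in thyroid, against 5.24% of all genes. Of the 19 tested, 8 were called higher and 0 lower than in liver, against 15.2% and 9.74% of all genes. Against testis 3 were higher and 8 lower, where all genes gave 21.2% and 24.6%. PMP22, a myelin protein that is also made outside nerve, averaged 441 ± 71.6 CPM in thyroid (SD, n = 22) and 160 ± 37.5 CPM in heart (SD, n = 24), while SOX10, which marks Schwann cells, averaged 1.84 CPM in thyroid. NCMAP, a protein of noncompact myelin, was one of the 53 genes, with 105 ± 32.1 CPM in thyroid (SD, n = 22) and 13.1 ± 4.69 CPM in pituitary (SD, n = 23).

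HOX genes, whose order on the chromosome follows position along the body axis, differed by paralog group and by the tissue compared. Among the anterior groups 1 to 5, 10 of 11 genes were called higher in thyroid than in cerebellum and 1 lower, against 14.2% and 14.9% of all genes. Against kidney 0 of the 11 were higher and 4 lower, with a median log2 fold change of -1.77, where 8.32% of all genes were lower. HOXB3 averaged 11.8 ± 3.65 CPM in thyroid (SD, n = 22) and 7.02 ± 2.07 CPM in kidney (SD, n = 24) and was the only tested HOX gene with its highest mean in thyroid. Among groups 6 to 13, 14 of 16 were called lower than in kidney, with a median of -7.10. Against cerebellum 9 of these 16 were called higher and 0 lower, with a median of 2.85. HOXA13, HOXB13, HOXC13 and HOXD13 had no count in thyroid. Of 18 cell division genes, 16 were called lower than in ovary, 16 than in skin, 18 than in testis and 1 than in heart, and 0 than in liver, kidney, pituitary or adrenal gland. Of all genes, 8.86% were lower than in ovary, 9.81% than in skin, 24.6% than in testis and 8.96% than in heart. Against cerebellum and against hypothalamus 5 of the 18 were called higher in thyroid and 0 lower, where 14.2% and 8.87% of all genes were higher. MKI67, a marker of dividing cells, averaged 1.44 CPM in thyroid and 73.3 CPM in skin.

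Thyroid-high genes varied more between libraries than most. The median CV was 21.8% over the 12787 genes with at least 1 CPM in thyroid, and 36.2% over the 53. A CV above 49.9%, the 90th percentile of all these genes, was found for 18 of the 53. PTH, RHCG and MYH4 had CVs of 222%, 206% and 187%, SFTPC 125%, SLC5A5 94.3%, PAPPA2 86.1%, SST 85.4% and CALCA 71.1%. The steadiest were DUOXA1 at 15.9%, CYBRD1 at 18.2% and AGER at 18.7%, while TG stood at 31.0%.

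The 53 genes were last compared between the breeding groups within thyroid, in 1 edgeR fit of the 22 libraries with 13520 genes and an FDR below 0.01. Between BF and BM, 687 genes (5.08%) were higher and 834 (6.17%) lower in BF. Of the 53, 9 were higher and 2 lower, with a median log2 fold change of 0.26 where that of all genes was 0.02. SLC5A5 had 673, 676, 550, 834 and 1699 CPM in BF, against 243, 259, 47.1, 367, 165 and 102 CPM in BM. The groups did not overlap, and the difference was 2.15 (SE 0.50, FDR 0.00525). DUOXA2 had 242 to 357 CPM in BF and 109 to 218 CPM in BM (0.93, SE 0.16), DUOX2 had 107 to 206 CPM in BF and 67.1 to 107 CPM in BM (0.73, SE 0.19), and NKX2-1 had 268 to 412 CPM in BF and 198 to 254 CPM in BM (0.69, SE 0.14). SUSD5, a sushi domain protein, had 37.6 to 62.1 CPM in BF and 79.4 to 208 CPM in BM (-1.43, SE 0.32), and CYP4B1, a cytochrome P450, had 18.99 to 59.9 CPM in BF and 27.99 to 113 CPM in BM (-1.27, SE 0.34). PGF, LRCOL1, SLC25A52, SPON2 and SRCRB4D were the other genes of the 53 that were higher in BF. Outside the 53, ANO1 of the hormone synthesis list and the follicular transcription factor GLIS3 were called lower in BF. Of the TSH receptor signalling list, GNAQ, GNA11 and ADCY9 were called lower in BF and RAP1GAP higher. Of the 53 genes, 8 had all BF values above all BM values and 3 had them all below, against 3.38% and 3.13% of all genes.

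BF and BM are both breeders and differ in more than sex. Reads were 50 nt long in 3 of 5 BF libraries (BF 01, BF 02 and BF 05) and in NF 03, and 51 nt in all males, and 2 of 6 BM animals were 0.74 years old. Without the 4 libraries of 50 nt 0 genes were called, a covariate for read length left 2, and leaving out the males of 0.74 years left 4, and none of the 53 was among them. SLC5A5 was at 2.68 (SE 0.61, edgeR FDR 0.0461) without the 50 nt libraries and at 2.69 (SE 0.58, edgeR FDR 0.0135) without the younger males. Without the 50 nt libraries NKX2-1, PGF, SUSD5 and CYP4B1 differed less than with all libraries, at 0.57, 0.55, -1.20 and -1.12. DUOXA2, DUOX2, LRCOL1, SLC25A52, SPON2 and SRCRB4D differed more. Outside the 53, ANO1 was then at -0.73, GNA11 at -0.47 and ADCY9 at -0.29. With 1 library left out they were at -1.06, -0.79 and -0.44 or lower. GNAQ was at -1.68, GLIS3 at -1.71 and RAP1GAP at 0.61 without the 50 nt libraries. Without the 6 libraries with most PTH, 4 genes were called, with SPON2 among the 53. Leaving out 1 library gave 365 genes without BF 02, 423 without BF 15 and 2229 without BM 16, and 706 to 976 without BM 20, BM 21, BM 22, BM 24, BM 25 or BF 01. Of these 22 fits, DUOXA2 was called in 22, NKX2-1 in 21, SLC25A52 and SRCRB4D in 20, SUSD5 in 19, and SLC5A5 and PGF in 18. The calls of SPON2, LRCOL1, DUOX2 and CYP4B1 were made in fewer, at 11, 10, 5 and 5 of the 22 fits. Outside the 53, ANO1 was called in 21 of the 22, GNAQ in 20, GNA11 in 19, RAP1GAP in 18, GLIS3 in 15 and ADCY9 in 13. The summed level of 10 smooth muscle and pericyte genes was 835 to 1367 CPM in BF and 1245 to 2018 CPM in BM, and that of 21 endothelial genes was 2459 to 3701 CPM in BF and 3086 to 4307 CPM in BM. Their part in these calls was not tested.

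In the other comparisons edgeR called 0 genes. Between NF and NM 657 genes had an unadjusted p below 0.05 and DESeq2 called 4, between BF and NF the numbers were 3900 and 877, and between BM and NM they were 383 and 0. The interaction of sex and breeding, which tests whether the difference between the sexes differs between breeders and non-breeders, gave 0 genes, with 2320 below an unadjusted p of 0.05 and 17 called by DESeq2. Of the 53 genes, 1 (SUSD5) lay below NF in BF without overlap and 0 lay above, against 2.61% and 0.673% of all genes. Between NF and NM, and between BM and NM, 0 of the 53 were separated in either direction. Between NF and NM the shares of all genes without overlap were 0.155% higher and 0.251% lower in NF, and between BM and NM 0.037% higher and 0.288% lower in BM. The median log2 fold change of the 53 genes was 0.14 between NF and NM, -0.04 between BF and NF and 0.04 between BM and NM.

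**Figure D5:**
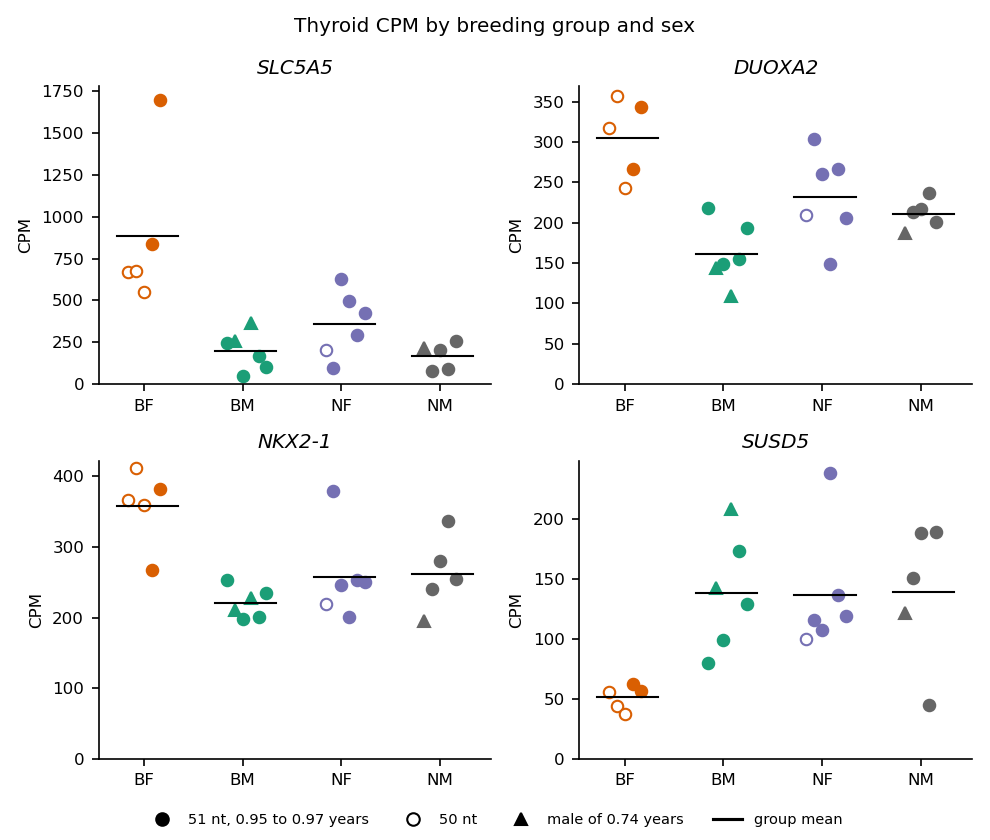
CPM of SLC5A5, DUOXA2, NKX2-1 and SUSD5 in thyroid by group, with open circles for libraries of 50 nt, triangles for males of 0.74 years and lines at group means. BF lies above BM without overlap for the first 3 genes and below it without overlap for SUSD5.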

How the data were processed

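The authors sequenced polyA RNA (TruSeq v2, not stranded, single-end), aligned it with STAR 2.4.1d to cavPor3, discarded reads with several positions and used HTSeq for counting on their reference transcripts, which carry human symbols. The deposited values are raw counts of 16009 genes in 238 libraries, without normalization. In 27 of these the symbol was turned into a date, and none of them is named. A further 32 genes have no count.

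Libraries were grouped by their labels. Between tissues, 1 quasi-likelihood fit of edgeR 4.0.16 (R 4.3.3, TMM, robust) compared thyroid with each of the 10 tissues, with Benjamini-Hochberg adjustment over 15660 genes. Genes with low counts were filtered by filterByExpr at 10 counts and a total of 15. Within thyroid, the 4 groups were fitted likewise. An SE is the size of a log2 fold change divided by the square root of its F. CPM, figures and gene counts used Python 3.11.15, pandas 2.3.3, numpy 2.4.6 and matplotlib 3.10.9. The fits were also run on simulated counts with a common base mean per gene over all tissues. These are simpler than the real counts, and no result here rests on them.

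Named genes are TG and NKX2-1, members of the gene lists, the 25 genes with the highest ratio of thyroid to the next tissue (at least 1 CPM in thyroid), up to 10 genes lower in each comparison, the 5 widest differences in each direction (at least 10 CPM in the higher tissue) for the 3 tissues with fewest calls, and called genes of these sets within thyroid. Other genes among the 53, and those beside the fold threshold, were named after their values were seen. A few genes that the rule takes in are not reported here. The members and lists were chosen with earlier results of these data known.

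Animal numbers pair libraries across tissues, because a number is 1 animal. The mean correlation of deviations between thyroid and another tissue was -0.0119 to 0.0690 within animals. Alternatives were DESeq2 1.42.0, median-of-ratios factors, no filter, the replicate (animal) block, 1 mean per tissue, sex and breeding group, TG left out, a fold threshold of 1 on the log2 scale, libraries left out by read length, age or one at a time, and the excluded library included. Leaving out the 6 libraries with most PTH was chosen after seeing the data.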

Additional observations from a re-analysis of the deposited data

Results flagged for a closer look

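For 25 genes, each breeding group of thyroid libraries was examined for a library far from the rest by Dixon's test. In 19 of 100 groups a library stood apart. The chance rate of about 1 in 20 groups holds for normal and independent values. Several of these genes vary widely and stood apart in the same libraries, so that no excess over chance is read from this count.

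PTH, RHCG and MYH4 stood apart together in the same 3 libraries. PTH had 18235 CPM in BF 05 where the nearest BF library had 5.46 CPM, 26745 CPM in NF 03 and 6647 CPM in NM 18. RHCG had 535 CPM in BF 05, 926 CPM in NF 03 and 298 CPM in NM 18. MYH4 had 60.6 CPM in BF 05, 116 CPM in NF 03 and 46.2 CPM in NM 18. These 3 libraries are among the 6 with most GCM2.

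SFTPC had 105 CPM in NF 08, 93.6 CPM in BM 16 and 33.0 CPM in NM 30, where the nearest libraries of their groups had 35.8, 25.6 and 9.08 CPM. SST had 12367 CPM in BM 16, against 2910 CPM in the nearest BM library. NF 06 was high for DUOX2 at 197 CPM and for NKX2-1 at 379 CPM. Single libraries stood apart for GRK7 at 19.7 CPM in NF 09, for SLC5A5 at 1699 CPM in BF 15, for PGF at 991 CPM in NF 11 and, on the low side, for SLCO1A2 at 447 CPM in NM 29.

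The library labelled as the thyroid of non-breeder male 19, which was used only in the alternative fits that included it, held HLA-DOB at 230 CPM and the B cell gene MS4A1 at 753 CPM. In the 22 thyroid libraries HLA-DOB was at most 86.8 CPM and MS4A1 at most 1.58 CPM.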

How the results depend on the processing

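Of the counts of genes called between tissues, 132 stayed within 1.5 times the reported count and 12 did not. A fold threshold of 1 on the log2 scale gave 131 genes higher and 15 lower in thyroid than in each tissue, and 6523 called against heart, 5603 skin, 6670 liver, 4815 kidney, 8032 cerebellum, 7130 hypothalamus, 6153 pituitary, 5648 adrenal gland and 5115 ovary. Without the males of 0.74 years 3 genes were lower in each. With the replicate (animal) block 52 genes were higher and 5 lower in each tissue, 51 of the 52 shared with the 53, and RHCG and SLC4A5 were lost. DESeq2 gave 50 higher and 7 lower, median-of-ratios factors 49 higher, no filter 57 higher, and including the excluded library 64 higher, of which 52 were shared. RHCG turned to -4.75 without the 6 libraries with most PTH. The TG ratio of 5259 became 64022 with medians over libraries. Within thyroid, BF against BM had 1521 calls by edgeR, 2371 by DESeq2, 0 without the 50 nt libraries, 2 with read length as a covariate, 4 without the younger males, 405 with the excluded library, 4 without the 6 libraries with most PTH and 365 to 2229 with 1 library left out. Without 1 library, BF against NF gave 0 to 585 (463 without BF 14, 74 without BF 05, 418 without BM 16 and 585 without NF 08) and the 3 other comparisons 0. BF against NF gave 877 calls by DESeq2 and 1 without the 50 nt libraries, NF against NM 4 and the interaction 17 by DESeq2. Where no fewer libraries or genes were used, the cause was not tested. Depth limits genes near or below 3 counts per library (0.181 CPM in thyroid). Among them are RHCG outside the 6 libraries with most PTH, SLC26A4, CPS1, BMPR1B, ZNF385B and CDHR1, whose fitted folds are no bounds.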
